A study of Saccharomyces cerevisiae with 12 samples.

Results

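Transcripts of the proteins of the cytosolic ribosome were followed in a pat1 mutant and in wild type budding yeast, with and without the cell wall dye Congo Red. The genes were chosen by their symbols in the array annotation, which had to begin with RPL or RPS followed by a number, or with RPP followed by 0, 1 or 2, each with an optional A or B for the copy. That rule matched 128 of the 5449 genes measured. RPP1 (YHR062C) was matched by its letters only, since it encodes a subunit of RNase P and RNase MRP, and was kept out of the counts. The remaining 127 ribosomal protein genes comprised 75 of the large subunit and 52 of the small subunit. An A and a B copy were both measured for 50 proteins, which accounted for 100 genes, and 27 genes had no measured partner. Another 10 ribosomal protein genes of the current RefSeq gene table were not analysed here.

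Saccharomyces cerevisiae strain BY4741 was used as a pat1 mutant and as wild type, and each strain was grown for 2 h with 30 µg/ml Congo Red or without drug. There were thus 4 groups of 3 Affymetrix arrays: pat1 with Congo Red, pat1 without drug, wild type with Congo Red and wild type without drug. Each strain had 3 biological samples, and each sample was hybridised once without and once with the dye, so arrays of the same strain and number come from the same sample. The labels name the mutant only as pat1 and give neither the allele nor the number of clones. Congo Red attaches to the chitin and glucan fibres of the yeast wall and weakens it. Pat1 is an mRNA binding protein that takes part in decapping and in the decay of deadenylated mRNA.

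A yeast ribosome joins a large subunit, which forms peptide bonds, with a small subunit, which reads the mRNA. Most of its proteins are encoded by a pair of genes, A and B, that remain from an ancient duplication of the genome, and the copies of a pair often specify identical or nearly identical proteins. Ribosomal protein mRNAs are among the most abundant in growing cells, and their transcription is set by Rap1, Fhl1 and the coactivator Ifh1 under control of the TORC1 kinase complex. Their levels usually fall together when growth slows or stress sets in.

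PAT1 signals were 2.95 to 3.94 on the 6 pat1 arrays and 10.50 to 10.93 on the 6 wild type arrays (log2 signal). The a-specific genes of this MATa strain, MFA1, MFA2, STE2, STE6 and BAR1, gave 10.96 to 13.66 on all arrays, whereas STE3, the alpha-specific gene measured, gave 5.20 to 7.33. The list of 23 general stress genes set some arrays apart from others of their group. As the median deviation from each gene's own mean, it stood at 0.896 on the third pat1 array with Congo Red and 1.134 on the third pat1 array without drug, and at 0.258 and 0.250 on the second wild type arrays with and without Congo Red. The other arrays lay between -0.854 and 0.168. URA3, deleted in BY4741, gave 6.76 on the first pat1 array without drug and 7.71 on array 2 of wild type with Congo Red, against 2.94 to 3.27 on the other arrays. These are measured differences between arrays whose part in the results below was not tested, except that values without the arrays concerned are given where they change a result.

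The ribosomal protein genes lay near the top of the signal range. Their mean signal over the 12 arrays had a median of 13.39 on the log2 scale, against 9.58 for all genes. A mean above 13 was reached by 99 of the 127 members (78.0%) and by 172 of all genes (3.16%), and 114 members were among the brightest 5% of genes. RPL10, whose protein joins the large subunit late in its assembly, had the highest mean of 14.03, followed by RPL2A, RPS21A, RPS31 and RPL7A. The lowest was RPL41A, which encodes a very short peptide, at 6.91, followed by RPL15B at 10.27 and then RPS19A, RPS9A and RPS10B. Signals of different probe sets are not levels per transcript, so this order is one of brightness only. The members varied little between arrays of a group, with a median residual SD of 0.08 against 0.19 for all genes. The 99th percentile of each array was 13.57 to 13.61 in pat1 with Congo Red, 13.61 to 13.62 in pat1 without drug, 13.60 to 13.66 in wild type with Congo Red and 13.66 to 13.68 in wild type without drug. It was thus lower on the pat1 arrays than on the wild type arrays without drug. Since 99 of the 172 genes with a mean above 13 are members, this percentile is not separate from the members' own differences.

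The first comparison asked what differs in untreated cells of the mutant. No ribosomal protein gene passed the test in pat1 against wild type without drug (limma, Benjamini-Hochberg adjusted p under 0.05 over all genes), while 6.44% of all genes did, 2.94% lower and 3.51% higher. At an unadjusted p under 0.05, 13 members were lower, against 12.6% of all genes, and 1 was higher, against 11.8%. Counted in either direction, 14 of 127 members reached it, against 24.3% of all genes. Most members lay slightly below wild type. The difference was below 0 for 114 of 127 members (89.8%), against 52.2% of all genes, and its median was -0.085 on the log2 scale, against -0.014 over all genes. In 45 members every pat1 array lay below every wild type array, against 14.9% of all genes, and in 3 members every pat1 array lay above, against 12%. The size of the median depended on scaling: it was -0.031 after quantile normalization was repeated and -0.024 after cyclic loess, where 82 and 73 members were below 0. The standard error of a member's difference had a median of 0.09.

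With Congo Red in both strains, 1 member fell in pat1, RPL15B, and none rose, against 2.18% of all genes lower, 4.26% higher and 6.44% in either direction. At an unadjusted p under 0.05, 4 members were lower, against 8.74% of all genes, and 2 were higher, against 15%, while 23.7% of all genes reached it in either direction. The median difference was -0.062, against 0.044 over all genes, and 101 members (79.5%) were below 0, against 43.3% of all genes. Groups did not overlap in 18 members with lower and 9 with higher signal in pat1, against 11.5% and 18.2% of all genes. The median was -0.023 with quantile normalization and -0.022 with cyclic loess, and -0.115 when arrays were centred on their medians. The plot of differences by subunit shows the narrow spread of the members beside that of all genes.

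**Figure D1:**
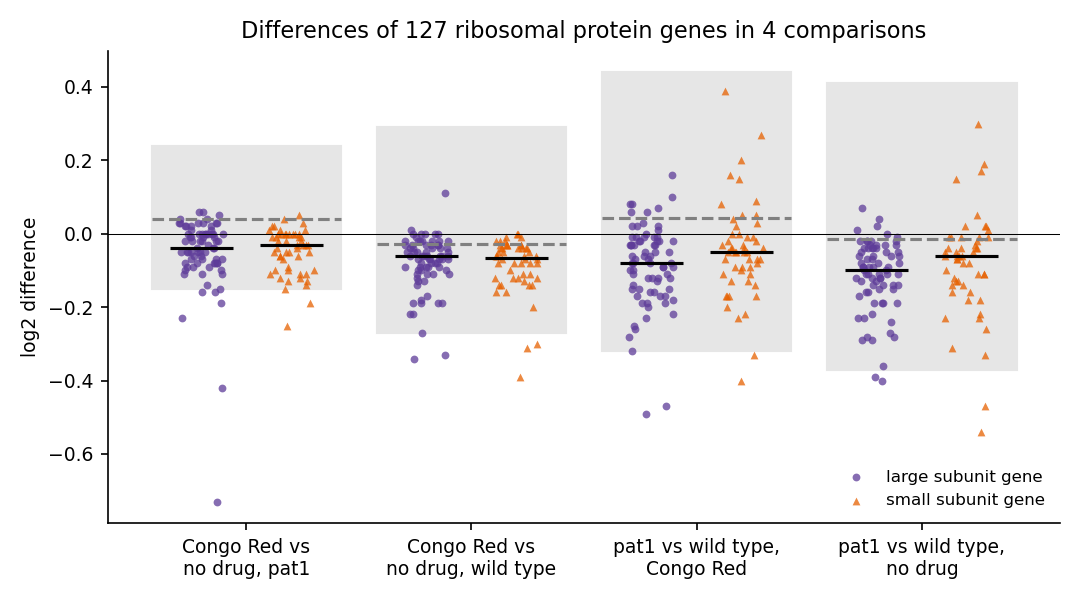
Difference (log2) of each of 127 ribosomal protein genes in 4 comparisons of 3 arrays against 3; circles are large subunit genes, triangles small subunit genes, black bars their medians, dashed grey lines the median over all 5449 genes and grey boxes the 10th to 90th percentile of all genes. Most members lie just below 0, with medians of -0.033 and -0.064 for the drug in pat1 and in wild type and of -0.062 and -0.085 for pat1 against wild type with and without Congo Red, and few lie outside the boxes.

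Among the large subunit genes, RPL15B (YMR121C) was the clearest. It is the minor of the genes for a protein of the core of the large subunit. RPL15B had signals of 10, 10.21 and 9.98 in pat1 with Congo Red and 10, 10.05 and 10.14 in pat1 without drug, against 10.48, 10.51 and 10.62 in wild type with Congo Red and 10.45, 10.46 and 10.35 in wild type without drug. All 6 pat1 arrays thus lay below all 6 wild type arrays. RPL15B fell by 0.47 ± 0.10 on the log2 scale in pat1 with Congo Red (SE, n = 3 arrays per group; 1.38-fold lower; limma adjusted p = 0.0196). Without drug it differed by -0.36 ± 0.10 (limma adjusted p = 0.0525), which missed the threshold. The call with Congo Red was lost in 9 of 24 alternative settings, while the difference lay between -0.55 and -0.43 in all of them. It was lost without the third (adjusted p = 0.0714) or first (0.0507) pat1 array with Congo Red, and without the third (0.0831), second (0.0548) or first (0.0501) wild type array with Congo Red. RPL15A (YLR029C), the major copy, had signals of 13.27, 13.29 and 13.29 in pat1 with Congo Red and 13.23, 13.27 and 13.23 in pat1 without drug, against 13.22, 13.16 and 13.24 in wild type with Congo Red and 13.27, 13.28 and 13.31 in wild type without drug. Its groups differed by no more than 0.08.

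The other large subunit genes with the widest differences did not pass the test, and several were less bright than most members. RPL26B (YGR034W), for a protein near the exit of the peptide tunnel, had 12.35, 12.46 and 12.36 in pat1 without drug, against 12.89, 13 and 12.48 in wild type without drug. The mutant arrays were all lower, by a narrow margin over the third wild type array, and RPL26B differed by -0.40 ± 0.14 (limma adjusted p = 0.119). With Congo Red the same gene differed by -0.17 ± 0.14. RPL19A (YBR084C-A), whose protein takes part in a bridge between the subunits, had 12.15, 12.42 and 12.29 in pat1 without drug, against 12.68, 12.70 and 12.65 in wild type without drug. These groups did not overlap, and RPL19A differed by -0.39 ± 0.12 without drug (limma adjusted p = 0.0689) and by -0.26 ± 0.12 with Congo Red (adjusted p = 0.199). Its copy RPL19B differed by -0.28 ± 0.11 and -0.19 ± 0.11. RPL9B, for a protein near the site where elongation factors bind, differed by -0.29 ± 0.16 without drug and -0.28 ± 0.16 with Congo Red, RPL34B by -0.29 ± 0.12 and -0.19 ± 0.12, and RPL40B, which encodes a fusion of ubiquitin with a ribosomal protein, by -0.28 ± 0.14 and -0.32 ± 0.14. The largest errors were those of RPL41A and RPL22B. RPL41A differed by -0.09 ± 0.50 without drug and -0.49 ± 0.50 with Congo Red, and its arrays ranged from 5.97 to 8.33. RPL22B, the minor copy for an outer protein of the large subunit, differed by -0.10 ± 0.21 and -0.25 ± 0.21.

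Among the small subunit genes, RPS19A (YOL121C), whose protein is needed for maturation of the small subunit, had the widest difference without drug. It had signals of 10.66, 11.34 and 11.00 in pat1 with Congo Red and 11.17, 11.41 and 11.18 in pat1 without drug, against 11.55, 11.50 and 11.14 in wild type with Congo Red and 12.02, 11.78 and 11.56 in wild type without drug. The strains were separate without drug and overlapped with Congo Red. RPS19A differed by -0.54 ± 0.18 without drug (limma adjusted p = 0.102) and by -0.40 ± 0.18 with Congo Red (adjusted p = 0.216). RPS1A (YLR441C) and RPS1B (YML063W) encode a protein at the side of the small subunit where mRNA leaves. RPS1A differed by -0.47 ± 0.15 without drug (limma adjusted p = 0.0898) and by -0.17 ± 0.15 with Congo Red, and RPS1B by -0.33 ± 0.14 in each state (limma adjusted p = 0.158 without drug and 0.172 with Congo Red). RPS10B, for a protein of the head of the small subunit, differed by -0.31 ± 0.15 without drug and -0.14 ± 0.15 with Congo Red.

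A few small subunit genes stood on the other side. RPS7B (YNL096C), for a protein that acts in processing of small subunit rRNA, had 12.96, 13.24 and 13.03 in pat1 with Congo Red and 13.04, 13.23 and 13.02 in pat1 without drug, against 12.79, 12.60 and 12.68 in wild type with Congo Red and 12.88, 12.61 and 12.91 in wild type without drug. Every pat1 array lay above every wild type array. RPS7B differed by 0.39 ± 0.12 with Congo Red (limma adjusted p = 0.0759) and 0.30 ± 0.12 without drug (adjusted p = 0.152), and it passed with Congo Red under quantile normalization (adjusted p = 0.041), cyclic loess (0.0494) and robust moderation with a trend (0.0358). RPS27A, for a zinc finger protein, had 13.54, 13.37 and 13.46 in pat1 with Congo Red, against 13.20, 13.27 and 13.09 in wild type with Congo Red, a difference of 0.27 ± 0.10 (limma adjusted p = 0.145). The brightest probe set stood for each of the 20 members with several. Without drug the second set of RPS10B, given above, gave -0.13 against -0.31. Second sets were also higher in RPS18B (0.04 against -0.05) and RPS8A (0.04 against -0.04). In other members the second set was lower, as in RPL18B and RPS11B (-0.29 against -0.06 in each) and RPS10A (-0.43 against -0.23).

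The P stalk, the flexible arm of the large subunit that recruits elongation factors, was measured in full. RPP0, the base of the stalk, and RPP1A, RPP1B, RPP2A and RPP2B, which attach to it as acidic proteins, differed between strains by 0.13 at most without drug and 0.08 at most with Congo Red, and none of the 5 passed the test. RPP1A had the widest difference, with 13.22, 13.27 and 13.09 in pat1 without drug, against 13.33, 13.33 and 13.31 in wild type without drug. RPP0 had 13.78, 13.85 and 13.81 in pat1 with Congo Red, against 13.82, 13.82 and 13.81 in wild type with Congo Red. The spread of each was near that of a typical member, and a p above the threshold does not show that these genes were equal in the strains.

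In 13 of 127 members all pat1 arrays lay below all wild type arrays both with and without Congo Red, against 6.75% of all genes. They were RPL6B, RPL8B, RPL11A, RPL13B, RPL14A, RPL15B and RPL31A of the large subunit and RPS1A, RPS1B, RPS9B, RPS14A, RPS24A and RPS26A of the small subunit. RPS7B was 1 of 2 members that lay above in both states, against 8.18% of all genes. The arrays with and without the dye come from the same biological samples, so the states do not give separate evidence.

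Bright and dim members differed in the size of their difference. The 99 members with a mean above 13 had median differences of -0.046 in pat1 against wild type with Congo Red and -0.068 without drug, whereas the 28 at or below 13 had -0.17 and -0.23. For Congo Red against no drug the medians were -0.020 in pat1 and -0.051 in wild type for the brighter members, and -0.082 and -0.15 for the dimmer ones. Whether signals this near the top of the scale are compressed was not tested.

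The next comparisons asked how the ribosomal protein genes respond to Congo Red in each strain. In pat1 no member passed the limma test for Congo Red against no drug, against 0.661% of all genes, and no member reached an unadjusted p under 0.05, against 5.60%. The main fit does not use the pairing of arrays by biological sample. With a replicate block, which does, 126 of all 5449 genes passed in pat1, against 36 without it, and still no member. The median difference was -0.033, against 0.041 over all genes, and 92 members (72.4%) were below 0, against 38.7%. Groups did not overlap in 8 members with lower signal, against 1.30% of all genes, and in 1 with higher signal, RPL15A, against 6.85%. The widest differences were those of RPL41A at -0.73 ± 0.50, RPL22B at -0.42 ± 0.21, RPS19A at -0.25 ± 0.18 and RPL40B at -0.23 ± 0.14. RPL22B had 12.05, 11.94 and 11.34 in pat1 with Congo Red, against 12.53, 11.95 and 12.12 in pat1 without drug. These groups overlapped, and the third treated array was the lowest of all. The median was -0.087 when arrays were centred on their medians. The median over all genes was 9.70 on the third pat1 array with Congo Red and 9.53 to 9.60 on the other 11 arrays.

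In wild type no member passed the limma test for Congo Red against no drug either, against 2.68% of all genes. Only RPL26B reached an unadjusted p under 0.05, while 12.7% of all genes did. Below 0 were 122 of 127 members (96.1%), against 57.1% of all genes, with a median of -0.064, against -0.029. After quantile normalization was repeated, 93 members were below 0 and the median was -0.030, equal to that of all genes. Groups did not overlap in 23 members with lower signal, against 10.2% of all genes, and in 1 with higher signal, RPL15B, against 10.6%. RPS19A was the widest, with 11.55, 11.50 and 11.14 in wild type with Congo Red, against 12.02, 11.78 and 11.56 in wild type without drug, and these groups did not overlap. RPS19A differed by -0.39 ± 0.18 (limma adjusted p = 0.410) and RPL26B by -0.34 ± 0.14 (adjusted p = 0.347). With a replicate block for the biological sample, which compares each treated array with its own untreated partner, 769 of all 5449 genes passed, against 146 without it. RPS19A and RPL26B then fell (limma adjusted p = 0.0300 for RPS19A and 0.0274 for RPL26B), and they were the 2 members that passed. RPS10B differed by -0.31 ± 0.15, RPS1A by -0.30 ± 0.15, RPL22B by -0.27 ± 0.21, RPL19A and RPL31B by -0.22 each, and RPL41A by -0.33 ± 0.50.

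Per biological sample, the median response of the members to Congo Red was -0.0789, -0.0181 and -0.00258 in pat1 samples 1 to 3 and -0.0513, -0.0598 and -0.0855 in wild type samples 1 to 3. All 6 medians were below 0, and those of the strains overlapped. Over all genes the medians were 0.0321, -0.011 and 0.12 in pat1 samples 1 to 3 and 0.00946, -0.0479 and -0.0441 in wild type samples 1 to 3. In sample 2 of each strain the members thus lay close to all genes. The response differed between strains in no member by the interaction test, against 0% of all genes past it, and no member reached an unadjusted p under 0.05, against 2.39% (130 genes). With the replicate block, 3 of all genes passed the interaction test, and no member did. The difference in response was below 0 for 33 of 127 members, against 36.8% of all genes. Its median was 0.025, against 0.058 over all genes, and it was -0.038 when arrays were centred on their medians, so its sign followed the scaling. RPL41A at -0.40 ± 0.71, RPS1A at 0.30 ± 0.22 and RPL31B at 0.24 ± 0.15 were the widest.

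The subunits were compared in all 4 groups. On each array, the median deviation of the large subunit genes from their own means was -0.078, -0.021 and -0.065 in pat1 with Congo Red, -0.014, 0.009 and -0.058 in pat1 without drug, 0.008, 0.050 and -0.022 in wild type with Congo Red, and 0.059, 0.107 and 0.042 in wild type without drug. The small subunit genes had -0.064, -0.020 and -0.035, then 0.017, 0.002 and -0.040, then 0.007, 0.041 and -0.067, and 0.045, 0.110 and 0.020 in the same groups. In both subunits the mean of the 3 arrays was lowest in pat1 with Congo Red and highest in wild type without drug. Single arrays of different groups overlapped, and the lowest was the first pat1 array with Congo Red by the large subunit and the third wild type array with Congo Red by the small subunit. The large and small subunit medians were -0.0761 and -0.0468 in pat1 against wild type with Congo Red, and -0.0996 and -0.0630 without drug. For Congo Red against no drug they were -0.0416 and -0.0287 in pat1 and -0.0636 and -0.0645 in wild type. The large minus small gap was thus -0.0293, -0.0367, -0.0129 and 0.000873 in these 4 comparisons, while the gap on single arrays had an SD of 0.0179 within groups. The gap for pat1 against wild type without drug lay between -0.0382 and -0.0121 when single arrays were left out, and that for Congo Red in wild type lay between -0.00734 and 0.00985, on both sides of 0.

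**Figure D2:**
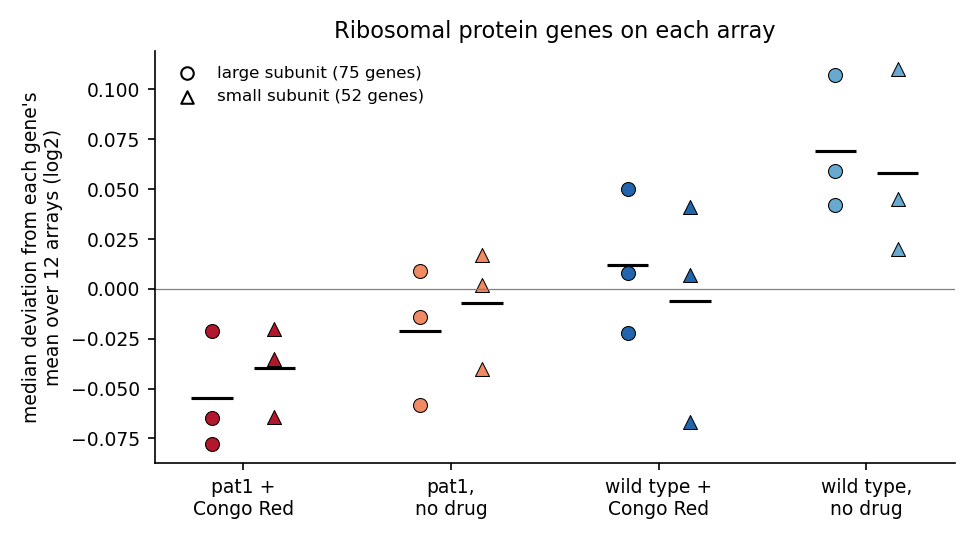
Median deviation (log2) of 75 large subunit genes (circles) and 52 small subunit genes (triangles) from each gene's mean over 12 arrays; each point is an array and each bar the mean of a group of 3. In both subunits the group mean is lowest in pat1 with Congo Red and highest in wild type without drug, and single arrays lie between -0.078 and 0.110.

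The A and B copies as classes had medians close to each other. The 50 A genes and the 50 B genes had medians of -0.0846 and -0.0649 in pat1 against wild type with Congo Red, -0.110 and -0.102 without drug, -0.0504 and -0.0282 for Congo Red in pat1 and -0.0685 and -0.0748 for Congo Red in wild type. Members of pairs had a median of -0.11 in pat1 without drug, against -0.041 for the 27 members with no measured partner, which were also brighter, with array medians of 13.65 to 13.76 against 13.24 to 13.40. Single pairs were then tested through the A minus B value on each array, in which a shift of equal size in both copies cancels. Dimmer members differed more than brighter ones, and a shift that depends on brightness would not cancel. The copies RPL15A and RPL15B had mean signals of 13.26 and 10.27. The part of brightness in the A minus B values was not tested. Of the pairs, 15 include a probe set that may also bind related transcripts, and near-identical copies can share signal, which was not separated here.

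The balance of 1 pair, RPL15, changed past the test. RPL15A minus RPL15B was 3.27, 3.08 and 3.31 in pat1 with Congo Red and 3.23, 3.22 and 3.09 in pat1 without drug, against 2.74, 2.66 and 2.63 in wild type with Congo Red and 2.82, 2.81 and 2.97 in wild type without drug. All pat1 arrays lay above all wild type arrays. The A minus B value of RPL15 was higher in pat1 than in wild type by 0.54 ± 0.10 with Congo Red (SE, limma adjusted p = 0.0108), while 6.46% of the 5499 genes and pairs passed. Without drug it differed by 0.31 ± 0.10 (limma adjusted p = 0.0765). The call was lost without the third wild type array with Congo Red (0.52, adjusted p = 0.0517) and without pat1 sample 3 and wild type sample 2 (0.49, adjusted p = 0.0904). The copies of RPL15 were read by separate probe sets of the gene-specific kind. Without drug, and for Congo Red in pat1 and in wild type, no pair passed, while 6.42%, 0.655% and 2.66% of genes and pairs did. For the difference in response no pair passed either, against 0%, and none of the 50 pairs reached an unadjusted p under 0.05, against 2.38% of genes and pairs.

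RPS7 had the widest difference without passing. RPS7A minus RPS7B was 0.25, -0.17 and -0.14 in pat1 with Congo Red and 0.38, -0.13 and 0.04 in pat1 without drug, against 0.53, 0.81 and 0.46 in wild type with Congo Red and 0.54, 0.73 and 0.33 in wild type without drug. The strains were separate with Congo Red, and without drug the first pat1 array lay within the wild type range. RPS7 differed by -0.62 ± 0.17 with Congo Red (limma adjusted p = 0.0527) and -0.43 ± 0.17 without drug (adjusted p = 0.144). It passed with Congo Red after quantile normalization (adjusted p = 0.0344), without the dimmest 25% of genes (0.0456), with robust moderation (0.0344), and without the first pat1 array without drug (0.0373) or with Congo Red (0.0405). RPS7A itself differed by -0.23 ± 0.13 with Congo Red while RPS7B differed by 0.39 ± 0.12, and neither passed.

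**Figure D3:**
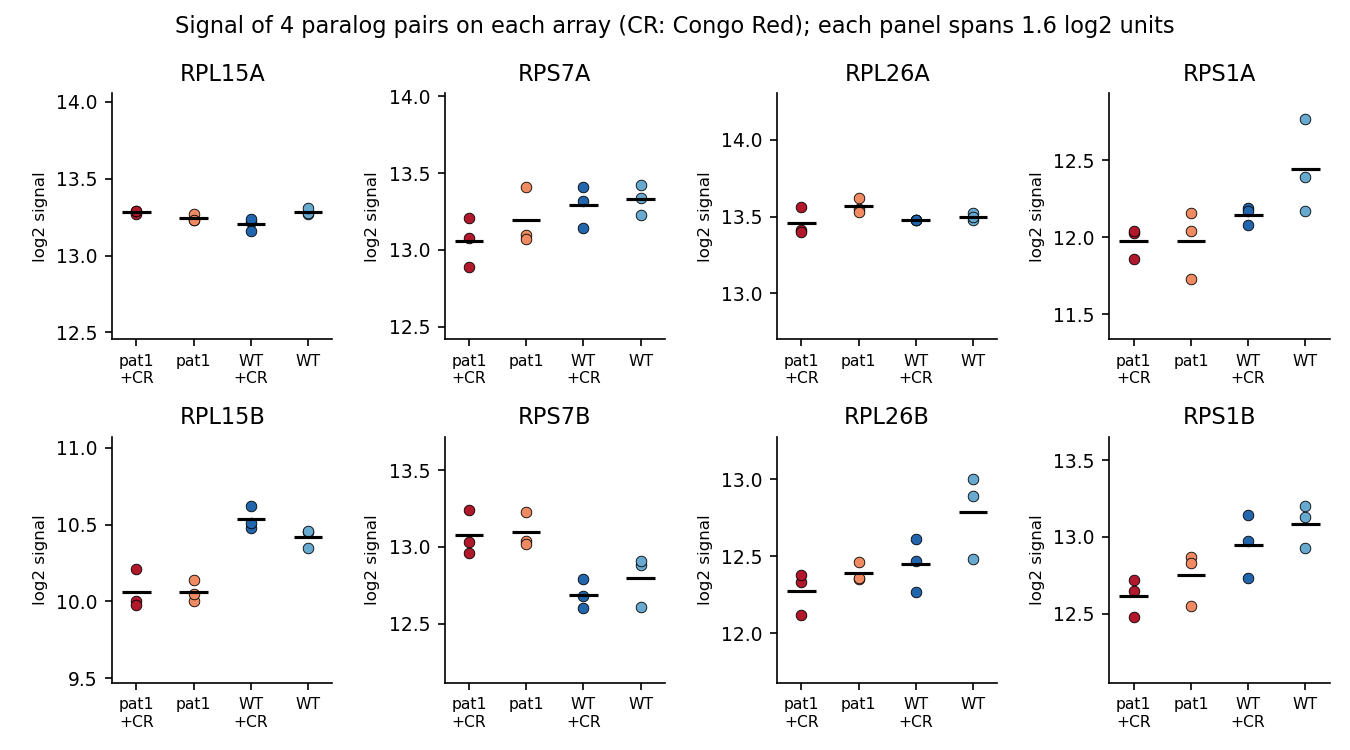
Log2 signal of the A copy (upper row) and B copy (lower row) of RPL15, RPS7, RPL26 and RPS1 on each of the 12 arrays, with group means as bars and 1.6 log2 units per panel. RPL15B lies between 9.98 and 10.21 on the pat1 arrays and between 10.35 and 10.62 on the wild type arrays, whereas RPL15A stays within 13.16 to 13.31 on all.

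Further pairs had smaller differences and none passed. RPS22, for a protein of the body of the small subunit, differed by -0.37 ± 0.11 with Congo Red (limma adjusted p = 0.0657) and -0.29 ± 0.11 without drug (adjusted p = 0.134), and its A minus B values were 0.17, 0.22 and 0.11 in pat1 with Congo Red, against 0.37, 0.71 and 0.54 in wild type with Congo Red. RPS27 differed by 0.34 ± 0.11 (limma adjusted p = 0.0940) and 0.30 ± 0.11 (adjusted p = 0.121). RPL26 differed by 0.47 ± 0.15 without drug (limma adjusted p = 0.0773) and 0.14 ± 0.15 with Congo Red, RPS19 by -0.43 ± 0.18 and -0.34 ± 0.18, and RPS28, for a protein near the mRNA exit, by -0.15 ± 0.13 and -0.32 ± 0.13. For Congo Red against no drug the widest differences were those of RPL22 in pat1 (0.42 ± 0.22) and of RPS19 in wild type (-0.35 ± 0.18). RPS19B was read by a probe set that may also bind related transcripts. Its other set gave -0.15 for Congo Red in wild type, against -0.04. For pat1 against wild type without drug it gave -0.24, against -0.11. With that set the A minus B differences of RPS19 would be smaller in size.

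Across the 50 pairs the change of A minus B was below 0.2 in size in 38 pairs for pat1 against wild type with Congo Red and in 43 pairs without drug, and in 48 and 47 pairs for Congo Red in pat1 and in wild type. An unadjusted p under 0.05 was reached by 8 pairs (16%) and 7 pairs (14%) in the strain comparisons, against 23.7% and 24.3% of genes and pairs, and by none in the drug comparisons, against 5.58% in pat1 and 12.7% in wild type. The strains did not overlap, in the same direction with and without Congo Red, in 9 of 50 pairs, against 15% of genes and pairs. Among them, A minus B was higher in pat1 for RPL8, RPL15, RPS27 and RPS29 and lower for RPL31, RPS22, RPS24 and RPS26. Neither direction prevailed, as 23 pairs had a change above 0 with Congo Red and 24 without drug. RPS29 was read in both copies by probe sets that may also bind related transcripts. For pat1 against wild type without drug, the other sets of RPS29A and RPS29B gave 0.04 and 0, against 0.02 and -0.11. Those of RPS24A and RPS26A gave -0.20 and -0.19, against -0.22 and -0.18. The other set of RPL8A, which may also bind related transcripts, gave -0.17, against -0.02.

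**Figure D4:**
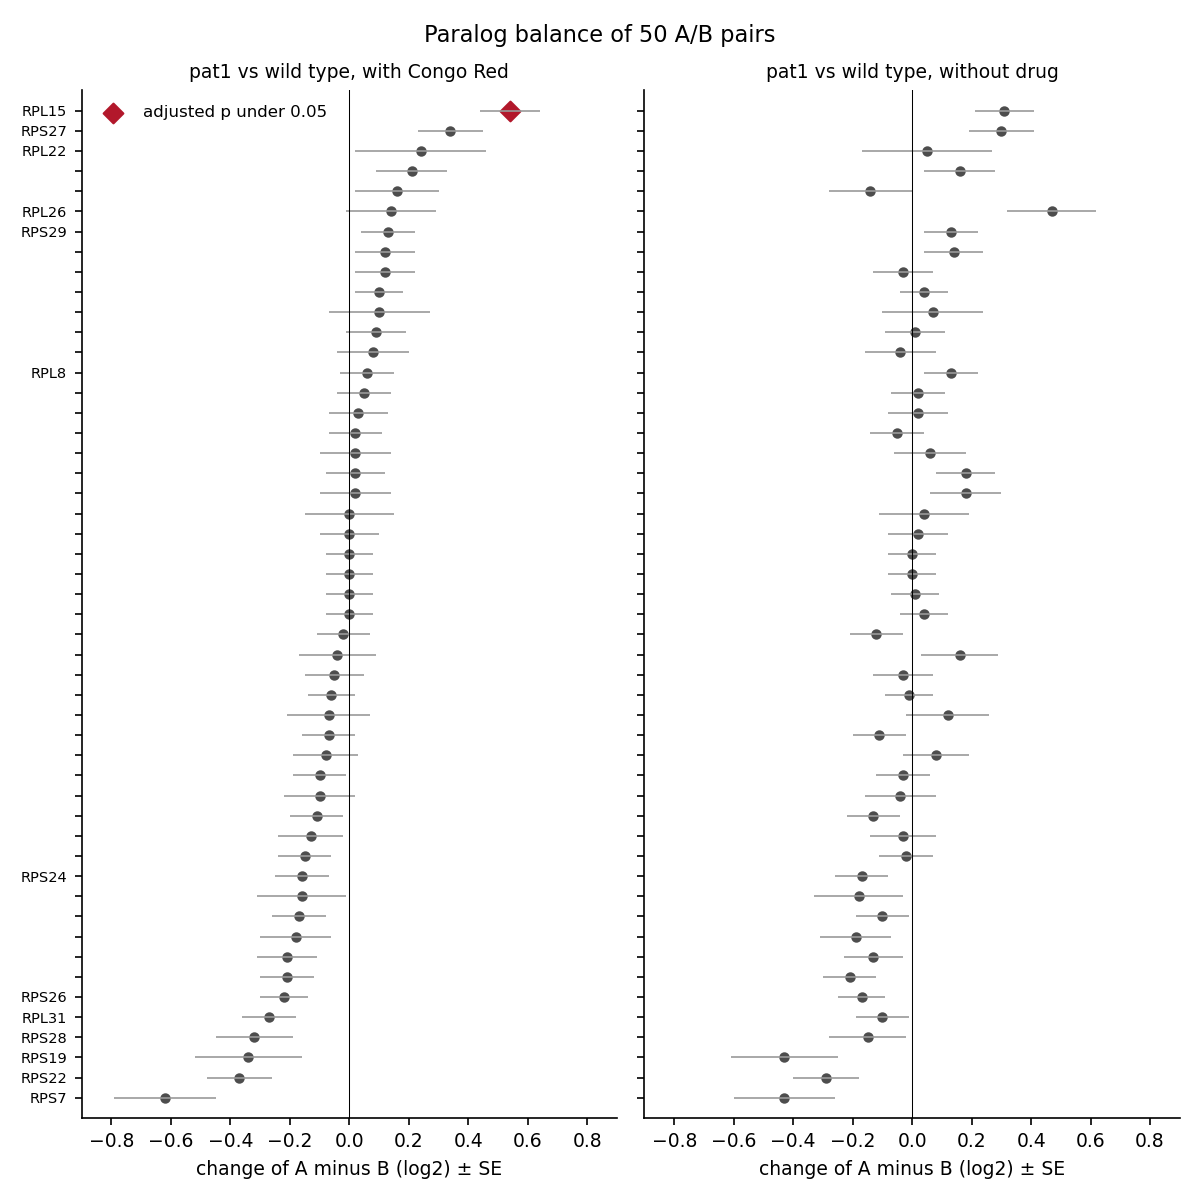
Change of A minus B (log2, with its SE) in pat1 against wild type with Congo Red (left) and without drug (right) for the 50 pairs in the order of the left panel, with names for pairs described in the text; the red diamond marks an adjusted p under 0.05. Changes run from -0.62 in RPS7 to 0.54 in RPL15 with Congo Red, and most points lie within 0.2 of 0.

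Genes that act with the ribosomal proteins were described from lists written from general knowledge. Of 18 regulators of ribosomal protein genes, 2 fell in pat1 without drug, against 2.94% of all genes, and none with Congo Red, against 2.18%. None rose in either state, and the list's medians were -0.23 without drug and -0.032 with Congo Red. IFH1, the coactivator recruited by Fhl1 to ribosomal protein promoters, had 8.93, 8.85 and 9.05 in pat1 with Congo Red and 8.84, 8.84 and 8.95 in pat1 without drug, against 9.27, 9.24 and 9.35 in wild type with Congo Red and 9.47, 9.50 and 9.65 in wild type without drug. All pat1 arrays lay below all wild type arrays. IFH1 fell by 0.66 ± 0.09 without drug (limma adjusted p = 0.00424) and differed by -0.34 ± 0.09 with Congo Red (adjusted p = 0.0547); it missed the threshold without drug only when the fit held just the groups compared (adjusted p = 0.0635), of 25 alternatives. SCH9, a TORC1 effector kinase, fell by 0.57 ± 0.15 without drug (limma adjusted p = 0.0497), a call lost in 17 of 25 alternatives and without any of 10 single arrays, with an adjusted p of up to 0.162. CRF1, a corepressor that competes with Ifh1, differed by 0.80 ± 0.25 without drug (limma adjusted p = 0.0734). Its signals were low, with 4.63, 5.50 and 5.57 in pat1 without drug, against 4.13, 4.53 and 4.61 in wild type without drug. MET17, which is deleted in BY4741, gave 3.45 to 4.20 over all arrays.

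A list of 15 genes held chaperones and importers of ribosomal proteins, and also ASC1 and STM1, whose products bind the ribosome itself. Of these 15, 3 were higher in pat1 than in wild type with Congo Red, against 4.26% of all genes. Without drug 1 was higher, against 3.51%. LOC1, a nucleolar protein of large subunit assembly, had 11.67, 11.77 and 11.72 in pat1 with Congo Red and 11.63, 11.83 and 11.67 in pat1 without drug, against 11.19, 10.94 and 10.76 in wild type with Congo Red and 11.17, 11.28 and 11.08 in wild type without drug. The strains did not overlap. LOC1 was higher in pat1 than in wild type by 0.76 ± 0.12 with Congo Red (limma adjusted p = 0.00590) and 0.53 ± 0.12 without drug (adjusted p = 0.0271). BCP1, the chaperone of Rpl23, was higher in pat1 than in wild type by 0.53 ± 0.13 with Congo Red (limma adjusted p = 0.0350) and ACL4, the chaperone of Rpl4, by 0.52 ± 0.14 (adjusted p = 0.0446). For Congo Red against no drug in wild type, BCP1 differed by -0.36 ± 0.13 and ACL4 by -0.41 ± 0.14, and neither passed. The list's median for Congo Red against no drug was -0.22 in wild type and 0.0082 in pat1. The calls of LOC1 without drug, BCP1 and ACL4 were lost without any of 5, 6 and 9 single arrays, with adjusted p of up to 0.101, 0.118 and 0.133. Over all alternatives they were lost in 9 of 25, 10 of 24 and 17 of 24 settings, and ACL4 was lost under each other scaling. The highest limma adjusted p of BCP1 was 0.146. The call of LOC1 with Congo Red was lost without pat1 sample 3 and wild type sample 2 (adjusted p = 0.0663). No RPL4 or RPL23 gene passed the test in any comparison.

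Of 29 measured translation factors none passed in any comparison, and their medians were 0.0053 and -0.061 in pat1 against wild type with Congo Red and without drug. Of 48 ribosome assembly factors, 2 fell with Congo Red in wild type, against 0.239% of all genes, namely KRR1 (-0.55 ± 0.12, limma adjusted p = 0.0337) and IPI3 (-0.60 ± 0.14, adjusted p = 0.0498), and the median was -0.36, against -0.064 for the ribosomal protein genes. In pat1 with Congo Red against wild type with Congo Red, 5 were higher, against 4.26% of all genes, namely KRR1, NOP58, NOP4, NOP7 and TIF6. The list median was 0.24 in that comparison and -0.025 in pat1 against wild type without drug. Without drug, where 2.94% of all genes were lower, UTP22 fell by 0.83 ± 0.16 (limma adjusted p = 0.0184). Each of these calls was lost without at least 1 single array, with adjusted p of up to 0.200 for IPI3, 0.166 for KRR1 in wild type, 0.130 for NOP4, 0.112 for TIF6, 0.107 for NOP58, 0.0743 for UTP22, 0.0586 for KRR1 in pat1 and 0.054 for NOP7. Genes chosen by symbol as those of mitochondrial ribosomal proteins, which form the ribosome of the organelle, had medians of 0.18 in pat1 with Congo Red and 0.20 without drug. MRP8 was matched by its name only and was kept in this list. Of 74, 3 were higher in pat1 than in wild type with Congo Red, against 4.26% of all genes, and 3 without drug, against 3.51%. The general stress genes had medians of 0.32 and 0.88 in the same comparisons, and CTT1, a cytosolic catalase, rose by 1.92 ± 0.44 without drug (limma adjusted p = 0.0317). The part of this stress difference in the small shift of the ribosomal protein genes was not tested. Without pat1 sample 3 and wild type sample 2, whose arrays stood apart in the stress genes, the ribosomal protein median without drug was -0.0502.

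**Figure D5:**
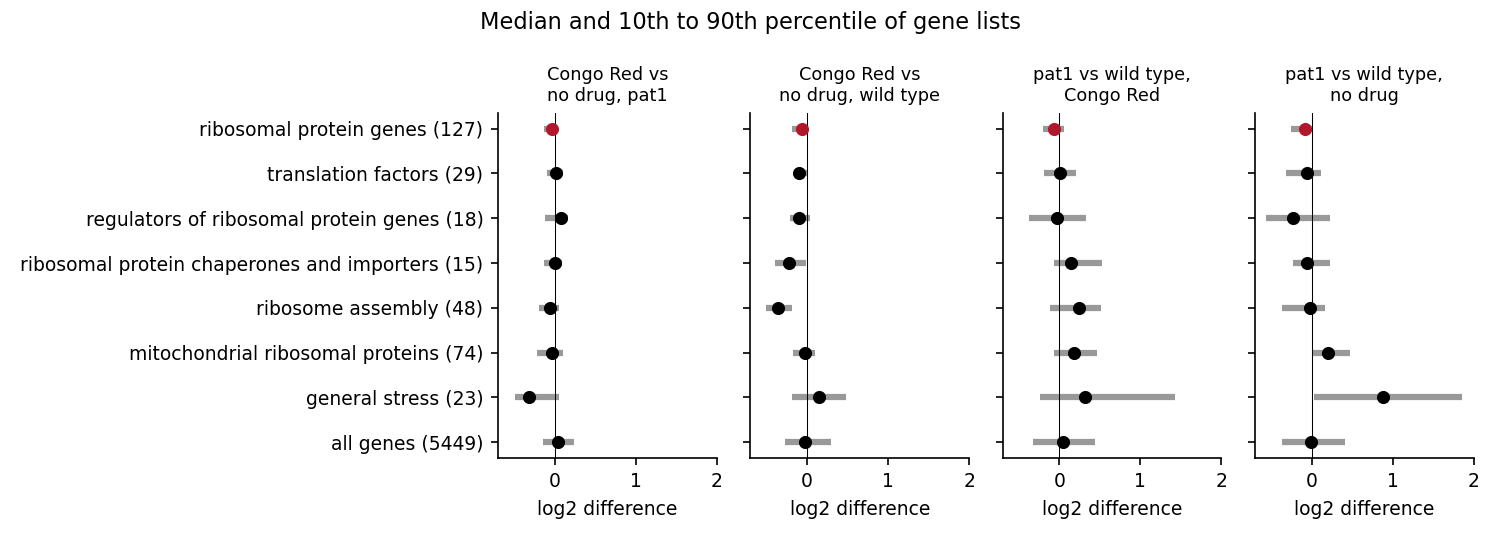
Median (dot) and 10th to 90th percentile (bar) of the log2 difference of each gene list in 4 comparisons, with the number of genes in parentheses. The ribosomal protein genes (red) span a narrow range close to 0, while assembly factors lie at -0.36 for Congo Red in wild type and general stress genes at 0.88 for pat1 without drug.

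Within groups the members moved together only in part. The correlation of each member's deviation from its group means with the median of the others had a median of 0.48 across the 12 arrays, and ranged from -0.63 for RPL5, which carries 5S rRNA into the large subunit, to 0.95. It was above 0.5 in 61 members and below 0 in 26. These values share arrays, scaling and a narrow range, and are a description only.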

How the data were processed

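The authors deposited log2 signals per probe set, made with RMA per the submitters' processing notes (version not given in the sources used here). They were used as deposited. Of 5739 probe sets, 23 were controls and 218 had no listed gene. The others gave 5449 genes through the platform annotation, with 12 symbols updated from RefSeq's R64 gene table, which named all 127 members and was used for names only. The brightest probe set stood for a gene with several. No coordinates are printed, because the build used by the authors is not stated in the labels, and sequences were not used here. Values of 1 pair are not reported here, though it is in the counts.

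limma 3.58.1 (R 4.3.3) fitted the 4 group means with 8 residual degrees of freedom. Arrays of the same biological sample are not independent. For pat1 against wild type these degrees of freedom thus overstate the independent spread, and p can be too small. With only the groups compared, 24 of all genes passed for pat1 against wild type without drug, against 351. With Congo Red 210 passed, against 351. Benjamini-Hochberg adjustment ran over 5449 genes, or over 5499 with 50 A minus B values added, with a threshold of 0.05. Python 3.11.15 and matplotlib 3.10.9 drew the plots. The steps were tested on simulated data. The number of arrays limits the precision.

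Named were members past the test, the 10 widest per comparison, the P stalk, the 5 brightest and dimmest, the 6 widest pairs, and up to 4 of each other list. Genes past the test in other lists, and the copies of pairs described, were also named after their values were seen. Members and lists were chosen with earlier results of these data known.

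Per the series' design text, the arrays with and without drug were made from the same biological samples. Deviations of same-numbered arrays correlated at 0.616, 0.732 and 0.668 in pat1 and 0.648, 0.801 and 0.782 in wild type, so the numbers pair the samples for the drug comparisons. The main fit did not use this pairing, and the replicate block did. Alternatives were other scalings, filters, moderation, probe set choices, the replicate block, only the groups compared, and arrays left out. Chosen after seeing the data were the mean of both arrays of a sample and the removal of pat1 sample 3 together with wild type sample 2.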

Additional observations from a re-analysis of the deposited data

Results flagged for a closer look

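RPL14B and RPL15A drew attention because all 3 pat1 samples moved up with Congo Red and all 3 wild type samples moved down. The genes were chosen by these same values, which are a description only. The share of all genes with this pattern was not computed. RPL15A differed by 0.04, 0.03 and 0.06 in pat1 and by -0.05, -0.11 and -0.07 in wild type, a difference in response of 0.12 ± 0.11 (SE, log2; limma interaction adjusted p = 1). RPL14B differed by 0.10, 0.01 and 0.07 in pat1 and by -0.02, -0.04 and -0.02 in wild type, a difference of 0.09 ± 0.11 (limma interaction adjusted p = 1). RPL14B is read by a probe set that may also bind related transcripts, and its other probe set gave -0.09 in pat1 and -0.18 in wild type, both below 0. Neither difference passed the test.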

How the results depend on the processing

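Over 94 results, each a named gene or pair in 1 comparison, 2132 of 2300 values under up to 25 alternatives each kept their direction and their side of the threshold, 139 lost the call, 14 gained it and 15 changed sign. The cause of a change was not tested. For Congo Red in wild type, the replicate block gave 2 members past the test, against 0, while 769 of all genes passed, against 146. The block changed no other call among members, medians and pairs. For pat1 without drug, 1 member passed without the dimmest 25% of genes and 2 with robust moderation. The median was -0.0307 with quantile normalization, -0.0242 with cyclic loess and -0.0502 without pat1 sample 3 and wild type sample 2, and the subunit gap was -0.0597 without probe sets that bind related transcripts. For pat1 with Congo Red, 2 members passed with quantile normalization, 2 with cyclic loess and 2 with robust moderation. None passed (0) with only the groups compared, 0 without both arrays with URA3 signal, 0 at an adjusted p under 0.01 and 0 without pat1 sample 3 and wild type sample 2. Pairs past the test numbered 2 with quantile normalization, 2 without the dimmest genes, 3 with robust moderation, 0 at 0.01 and 0 without those samples, where the subunit gap was -0.00935. The median was -0.115 with arrays centred on their medians, -0.106 centred on other genes, -0.0226 with quantile normalization and -0.022 with cyclic loess. Centring gave medians of -0.0871 and -0.0875 for Congo Red in pat1 and of -0.0379 and -0.0375 for the difference in response, which turned its sign.

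With single arrays left out, members past the test with Congo Red numbered 0 to 1 and pairs 0 to 3, and all other counts stayed at 0. The members' median ranged from -0.0843 to -0.0388 for pat1 with Congo Red, from -0.102 to -0.0652 without drug, from -0.0631 to -0.0177 for Congo Red in pat1, from -0.0805 to -0.0359 in wild type and from 0.00369 to 0.0538 for the difference in response. The subunit gaps ranged from -0.0308 to -0.0176, -0.0382 to -0.0121, -0.0237 to 0.0221, -0.00734 to 0.00985 and -0.0084 to 0.0145 in the same order.

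None of the results that changed sign was past the test. RPL41A for Congo Red in wild type was 0.03 without pat1 sample 3 and wild type sample 2, and between -0.75 and 0.22 with single arrays left out, the highest without the second wild type array without drug. RPL22B in pat1 with Congo Red was 0.11 without those samples. For the difference in response, without both arrays with URA3 signal, RPL41A was 0.26, RPL22B 0.15, and A minus B was 0.03 for RPL27 and -0.13 for RPL22. Without the samples named above, RPL22B was 0.08 and RPL22 A minus B -0.06. With single arrays left out, RPL41A lay between -0.96 and 0.07, RPL22B between -0.28 and 0.07, RPS19A between -0.03 and 0.31, and RPL22 A minus B between -0.05 and 0.31. The fit with only the groups compared was not run for the difference in response, to which all groups contribute. Arrays give no read depth, and members near the top of the signal range limit what small differences can show.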
